A study of Mus musculus with 6 samples.

Results

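The genes described here make cholesterol, move it within the cell and switch its synthesis on and off. They were taken by symbol from a fixed list of 26, each found once among the 24940 genes of the deposited table. Cells build cholesterol from acetyl-CoA along the mevalonate pathway, which also supplies the isoprenoid lipids that anchor small GTPases to membranes. The transcription factor SREBP2, the product of Srebf2, is held in the endoplasmic reticulum by INSIG proteins and its escort SCAP while sterol is plentiful. When sterol is short it is released, and it then raises the genes of synthesis together with Insig1, which closes a feedback loop. Osteoclasts, the multinucleated cells that resorb bone, depend on this pathway, since the nitrogen-containing bisphosphonates used against bone loss act by blocking farnesyl diphosphate synthase, the product of Fdps.

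Bone marrow-derived macrophages (BMMs), which served as osteoclast precursors, were cultured in 3 conditions with 2 RNA-seq libraries each, 6 in all. Every culture received the survival factor M-CSF at 30 ng/mL for 3 days. The -R cultures received neither RANKL nor LE. The +R cultures also received RANKL, the cytokine that drives osteoclast formation, at 100 ng/mL. The R+LE cultures received the same RANKL together with LE, a methanol extract of Abeliophyllum distichum leaves, at 10 μg/mL. Per the labels the mice were C57BL/6, 6 to 8 weeks old, and the plates had 48 wells, whereas the study's methods name male ICR mice and another plate format for sequencing. No source says whether the 2 libraries of a condition came from separate animals or cultures, so the p-values measure the spread between these libraries, which may be technical. Neither a culture with LE alone nor a vehicle group was among the samples analysed here.

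Values are read numbers scaled by transcript length and by the mapped reads of the library (RPKM), so levels of different genes can be set side by side. The mapped reads recovered from the values ranged from 29390213 to 34846378 per library. The number of reads on a member in a library ranged from 64 for Tm7sf2 to 27948 for Npc2. The 3 conditions were compared with limma on log2(RPKM + 0.5), over 11595 genes whose mean reached 0.5 RPKM, and all 26 members passed that filter. A gene is said to have risen or fallen where its p-value, adjusted over all 11595 genes (Benjamini-Hochberg), was below 0.05. It is said to be called where the fold change on the log2 scale was also at least 2. With 2 libraries against 2, an exact permutation test of a single gene cannot go below p = 0.333, so these p-values rest on the spread that limma shares across genes. Conditions whose libraries do not overlap, as reported for members below, were common over all 11595 genes. With RANKL, 40.3% of genes were separated upward in this way and 35.0% downward. The shares were 19.5% and 29.5% with LE, and 31.2% and 34.3% for R+LE against -R. The summed RPKM of 9 osteoclast markers amounted to 43.4 and 45.0 in the -R libraries, 2161 and 1894 in those of +R and 393 and 340 in those of R+LE. That of 8 macrophage markers amounted to 6732 and 7319 in the -R libraries, 3455 and 2692 in those of +R and 4206 and 3764 in those of R+LE. Most of this sum was Lyz2, at 2448 and 1815 RPKM with RANKL alone against 3191 and 2929 once LE was added. Adgre1, Cd14, Fcgr1, Itgam and Mertk were also higher with LE. Cd68 went the other way, from 468 and 422 RPKM with RANKL alone to 376 and 297 with LE added. Csf1r overlapped, at 217 and 195 RPKM with RANKL alone, then 208 and 163 with LE added. Among other cell types, 8 neutrophil markers summed to 17.5 and 15.6 RPKM in -R, with S100a8 and S100a9 the main contributors, and to at most 2.52 elsewhere. In turn 8 stromal or osteoblast markers summed to between 8.23 and 16.9 RPKM. Markers of B, T or NK, erythroid, mast, endothelial and megakaryocytic cells summed to at most 2.07 RPKM a list, with Cd3e and Hba-a1 at 0 in every library. The Rn45s entry, the ribosomal RNA precursor, took between 4.97% and 6.83% of gene reads in -R, between 10.9% and 11.1% in +R and between 11.2% and 13.5% in R+LE. In bulk RNA, fewer cells of a type and less RNA per cell cannot be told apart, and the part of these marker and Rn45s shifts in the changes below was not tested.

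With RANKL, 5 of the 7 genes of the mevalonate arm and the regulator gene Srebf2 rose. Npc1 and Soat1, for the release and storage of imported cholesterol, fell. Of the 26 members, 12 rose from -R to +R, where 23.9% of all genes tested rose. Another 4 fell, where 21.5% of all genes fell. The 12 were Acat2, Hmgcs1, Mvd, Idi1, Fdps, Lss, Cyp51, Msmo1, Nsdhl, Insig1, Srebf2 and Stard4, and the 4 were Fdft1, Tm7sf2, Npc1 and Soat1. At 2-fold or more, 5 members were called higher (Acat2, Hmgcs1, Mvd, Fdps and Stard4), against 6.58% of all genes. Likewise 2 were called lower (Npc1 and Soat1), against 8.92% of all genes. The median log2 fold change was 0.29 over the members and 0.045 over all genes tested.

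LE lowered a subset of the genes that RANKL had raised. Between R+LE and +R, 5 members fell (Hmgcs1, Mvd, Fdps, Nsdhl and Insig1), where 6.86% of all genes fell, and none rose, where 5.19% of all genes rose. Only Insig1 was called lower at 2-fold or more in limma, against 1.78% of all genes, and no member was called higher, against 1.46%. Before adjustment, 12 members had p-values below 0.05 in this comparison, 11 of them lower, against 13.8% of all genes, and 1 higher, against 9.54%. The median log2 fold change was -0.17 over the members and -0.047 over all genes tested. Between R+LE and -R, 7 members were higher (Acat2, Mvd, Idi1, Fdps, Sqle, Msmo1 and Stard4), where 15.3% of all genes were higher. Another 4 were lower (Tm7sf2, Npc1, Npc2 and Soat1), where 19% of all genes were lower. In that last comparison Soat1 was the only member called at 2-fold or more, against 6.36% of all genes in its direction, and no member was called higher, against 3.92%. The median was 0.086 over the members and -0.010 over all genes tested. The comparisons share libraries, so +R enters the first as the treated group and the second as the control, and they are not independent of one another.

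**Figure D1:**
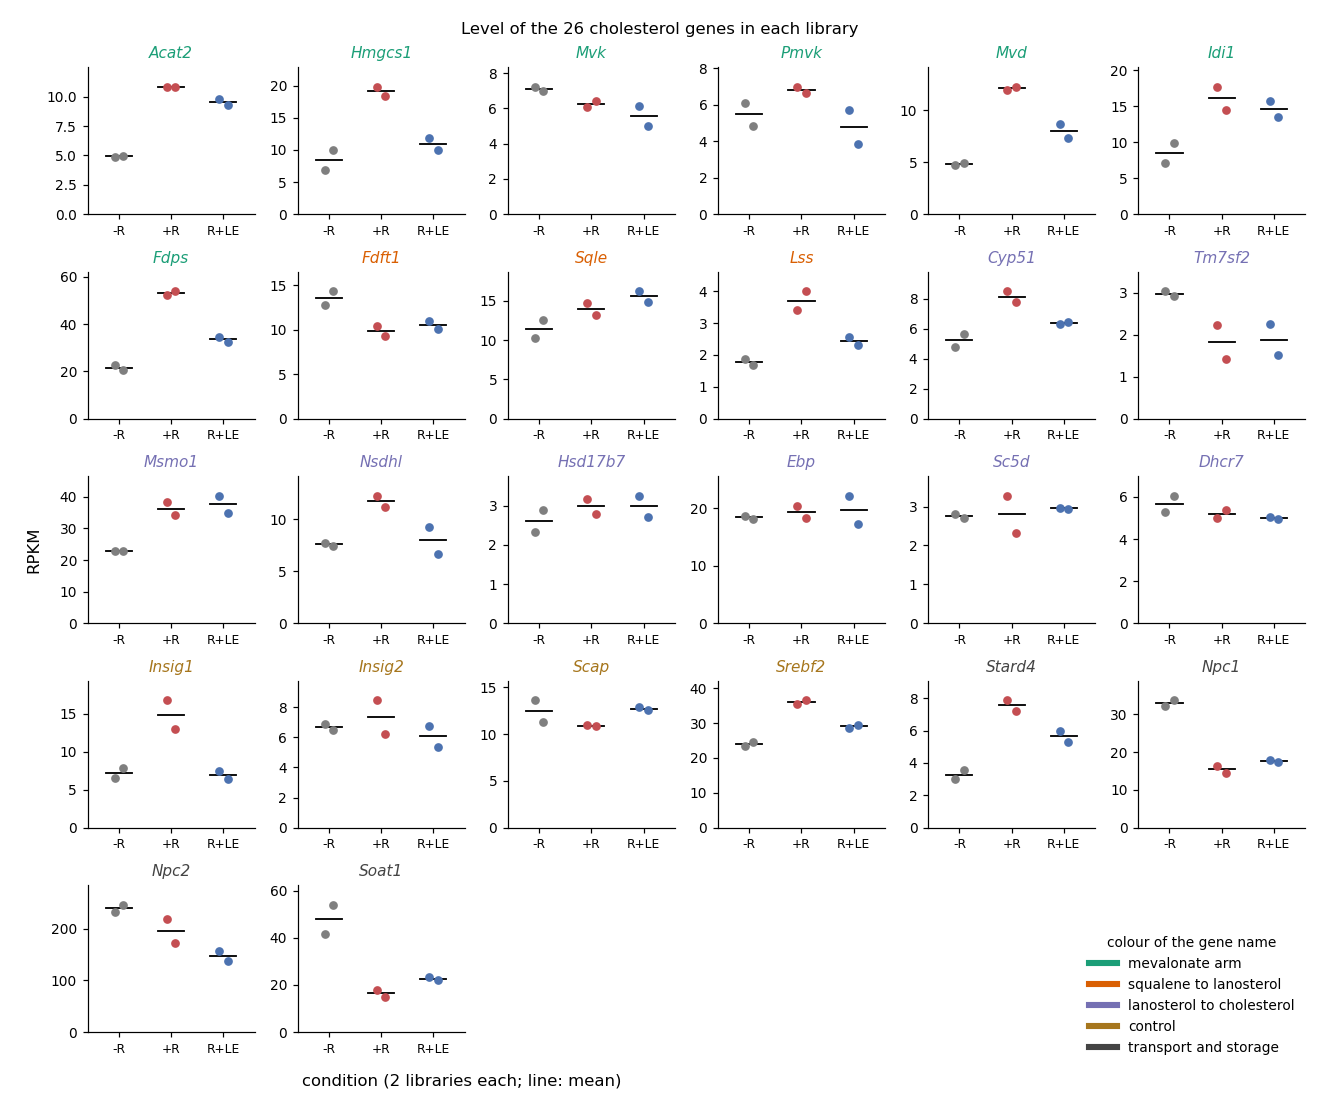
RPKM of each of the 26 members in the 6 libraries, with the condition on the horizontal axis, RPKM from 0 on the vertical axis, a point for each library and a line at the mean of 2 libraries. Hmgcs1, Mvd, Fdps, Nsdhl and Insig1 peak in +R and are lower in R+LE, while Npc1 and Soat1 are highest in -R.

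**Figure D2:**
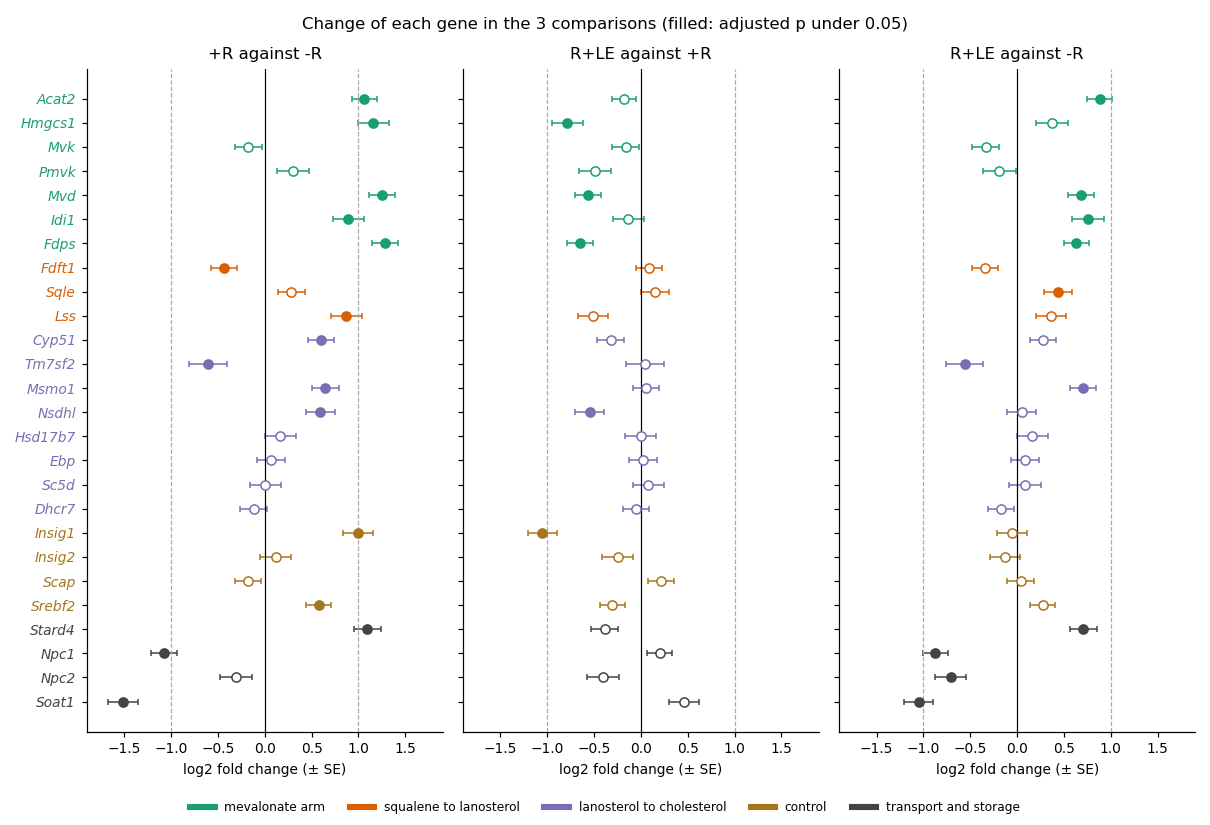
Log2 fold change on the log2(RPKM + 0.5) scale of each member in the 3 comparisons, with bars of 1 standard error from limma, filled points for an adjusted p below 0.05 and dashed lines at a fold change of 2. From +R to R+LE the 5 filled points all lie to the left of 0, and only that of Insig1 lies beyond the dashed line.

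The promoters of members that RANKL raised are shown to let their shared sequence features be seen beside the expression values. RefSeq promoters on GRCm38.p6, the assembly that mm10 names, run from 250 bases before to 50 after a gene's start, and they could be matched for 21 of the 26 members and for 8908 of the 11595 genes tested. Fdps, Fdft1, Sqle, Stard4 and Npc1 had no entry, and the entry for Pmvk starts 453 bases from the start that the authors' table gives. The sequences below are the 250 bases before the start, read 5′ to 3′ on the gene's own strand, of 4 members that LE lowered and of Msmo1, which RANKL raised and which did not pass the test with LE. Capitals mark the box bound by the factor NF-Y (ATTGG, or CCAAT where it lies on the other strand) and, in Hmgcs1 only, a sterol regulatory element (TCACCCCAC), the kind of sequence that SREBP proteins bind.
Hmgcs1, chr13:119690101-119690350, plus strand: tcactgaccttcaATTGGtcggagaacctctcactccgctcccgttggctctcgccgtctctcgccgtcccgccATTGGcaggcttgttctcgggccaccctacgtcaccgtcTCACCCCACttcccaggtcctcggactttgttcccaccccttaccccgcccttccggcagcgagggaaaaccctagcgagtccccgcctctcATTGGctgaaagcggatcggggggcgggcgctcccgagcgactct
Insig1, chr5:28071162-28071411, plus strand: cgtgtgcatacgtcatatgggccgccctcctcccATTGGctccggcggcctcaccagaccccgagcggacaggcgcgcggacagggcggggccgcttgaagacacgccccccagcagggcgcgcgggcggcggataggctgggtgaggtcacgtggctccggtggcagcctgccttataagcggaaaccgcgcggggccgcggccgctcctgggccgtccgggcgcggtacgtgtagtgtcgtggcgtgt
Mvd, chr8:122443423-122443672, minus strand: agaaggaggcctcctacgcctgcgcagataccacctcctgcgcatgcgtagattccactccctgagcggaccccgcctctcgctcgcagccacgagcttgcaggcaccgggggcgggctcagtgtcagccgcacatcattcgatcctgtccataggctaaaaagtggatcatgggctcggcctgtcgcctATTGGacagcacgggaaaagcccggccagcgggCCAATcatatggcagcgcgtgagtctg
Nsdhl, chrX:72918271-72918520, plus strand: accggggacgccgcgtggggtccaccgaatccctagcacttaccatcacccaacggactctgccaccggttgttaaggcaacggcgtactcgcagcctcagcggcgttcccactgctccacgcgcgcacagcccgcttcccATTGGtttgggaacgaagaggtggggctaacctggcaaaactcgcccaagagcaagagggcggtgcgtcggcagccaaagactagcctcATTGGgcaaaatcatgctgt
Msmo1, chr8:64733579-64733828, minus strand: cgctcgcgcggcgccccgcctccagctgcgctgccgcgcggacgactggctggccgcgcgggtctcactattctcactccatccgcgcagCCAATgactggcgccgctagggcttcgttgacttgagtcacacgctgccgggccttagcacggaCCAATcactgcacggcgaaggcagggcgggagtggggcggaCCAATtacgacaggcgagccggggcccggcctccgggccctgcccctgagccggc

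The NF-Y box and the Sp1 box each occurred in most of the member promoters. Over the whole 300 bases and on both strands, ATTGG occurred in 17 of the 21 member promoters, or 81%, and in 39.1% of the 8908 promoters. The sterol regulatory element TCACCCCAC occurred in 1 of the 21, that of Hmgcs1, at positions -137 to -129 counted back from the start, and in 0.471% of all promoters. The relaxed form TCACNCCAC, which contains the first form, added no further member and occurred in 1.08% of all promoters. The Sp1 box GGGCGG, common in promoters rich in G and C, occurred in 19 of the 21 against 65.6% of all, and the E-box CACGTG in 4 of the 21 against 10.5% of all. The box ATTGG was present in members whose levels differed in direction, among them Soat1, which fell with RANKL, and Ebp, which did not pass the test in any comparison. These are matches of letters in a short window, not measured binding. Only the forms named here were searched, so a promoter without a match is not shown to lack a sterol regulatory element.

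**Figure D3:**
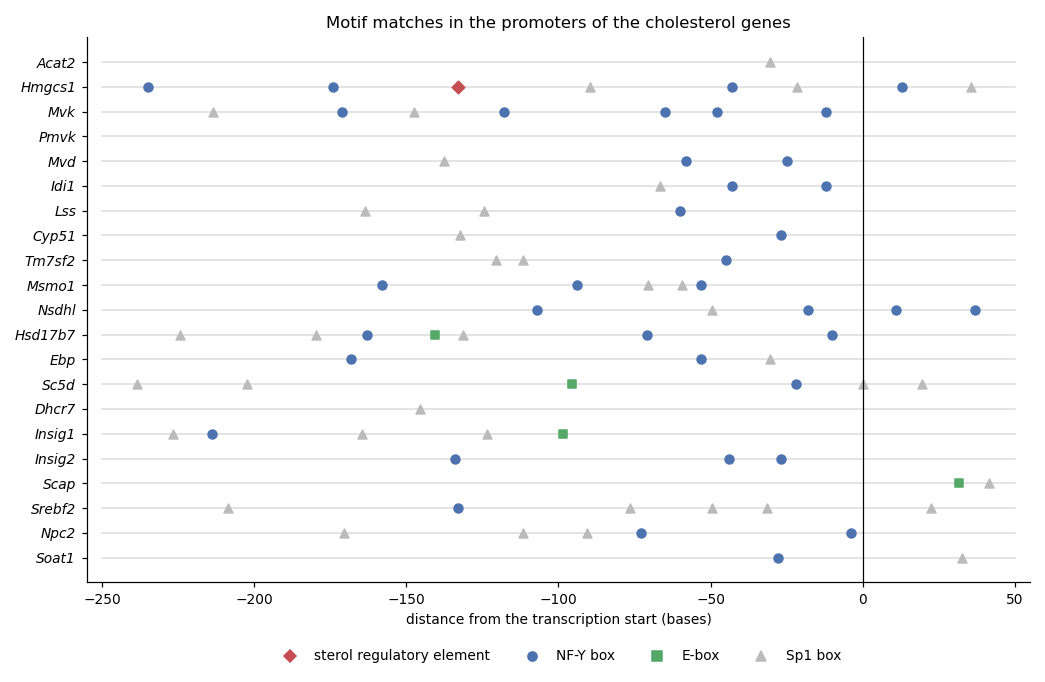
Positions of motif matches in the promoters of the 21 members with an entry, in bases from the transcription start, with a symbol for each motif and matches on either strand drawn alike. The sterol regulatory element in the searched form TCACCCCAC appears only in Hmgcs1, whereas the NF-Y box appears in 17 of the 21 promoters.

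The mevalonate arm takes acetyl-CoA to farnesyl diphosphate, the last intermediate shared by sterols and isoprenoids, and it held 4 of the 5 members called higher with RANKL. The summed level of its 7 genes was 59.6 and 61.9 RPKM in the -R libraries, 126 and 123 in those of +R and 92.6 and 81.4 in those of R+LE. These sums do not overlap between conditions, and R+LE lay between the other two. Much of the sum came from Fdps, whose product makes farnesyl diphosphate and which spans bases 89093588 to 89101967 of chromosome 3 (mm10). Fdps was 22.6 and 20.4 RPKM in the -R libraries, 52.2 and 54.0 in those of +R and 34.8 and 32.5 in those of R+LE. All 3 conditions stood apart, with a rise to 2.47 times the level of -R and a fall with LE to 0.633 times the level of +R. The log2 fold change came to 1.29 under RANKL (standard error 0.14, adjusted p = 2.09e-06), -0.65 with LE (standard error 0.14, adjusted p = 0.00515) and 0.63 for R+LE against -R (adjusted p = 0.00227). The last had an adjusted p of 0.0503 without -R replicate 2. Of the 100-base windows of the Fdps transcript, 69.8% also occur in transcripts of other genes (Gm3571, Gm43738 and Gm5873) in the GENCODE annotation. Gm43738 shares 1124 bases of exon with Fdps on the same strand. Reads of these genes may have been assigned to Fdps or lost from it.

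Hmgcs1, which encodes the cytosolic HMG-CoA synthase and spans bases 119690351 to 119708260 of chromosome 13, was 6.85 and 10.0 RPKM in the -R libraries, 19.9 and 18.4 in those of +R and 11.8 and 10.0 in those of R+LE. Both +R libraries stood above the other 4, and the lower R+LE library was level with the higher -R library. Its log2 fold change came to 1.16 under RANKL (standard error 0.17, adjusted p = 4.37e-05), and 0.90 without -R replicate 1. With LE it was -0.79 (standard error 0.17, adjusted p = 0.00553, or 0.109 with no filter on low values). Against -R the value in R+LE was 0.37 (adjusted p = 0.1002), which passed at 0.63 (adjusted p = 0.0293) without -R replicate 2 and, with adjusted p between 0.0345 and 0.0476, under median centring, quantile normalization, Rn45s left out of the depth and voom. Hmgcs1 shares 557 bases of exon with Gm48342 on the opposite strand, and the counting did not use strand. Its promoter is the one printed above with the sterol regulatory element.

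Mvd, which encodes the decarboxylase that yields isopentenyl diphosphate, spans bases 122433596 to 122443422 of chromosome 8 (mm10). It was 4.73 and 4.89 RPKM in the -R libraries, 11.96 and 12.3 in those of +R and 8.69 and 7.38 in those of R+LE. The libraries of the 3 conditions did not overlap, in the same order as those of Fdps. The log2 fold change came to 1.25 under RANKL (standard error 0.14, adjusted p = 2.9e-06), -0.57 with LE (standard error 0.14, adjusted p = 0.0129) and 0.68 for R+LE against -R (adjusted p = 0.00134). The fall of Mvd with LE had an adjusted p of 0.0677 without +R replicate 2, of 0.0839 without R+LE replicate 2 and of 0.0686 with no filter on low values.

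Acat2 and Idi1 rose with RANKL, did not pass the test with LE and stayed above -R. Acat2, which encodes the cytosolic thiolase that opens the pathway and spans bases 12943042 to 12960725 of chromosome 17, was 4.89 and 4.99 RPKM in the -R libraries, 10.8 and 10.9 in those of +R and 9.77 and 9.27 in those of R+LE. Its log2 fold change came to 1.06 under RANKL (standard error 0.13, adjusted p = 1e-05), -0.18 with LE (standard error 0.13, adjusted p = 0.484) and 0.88 for R+LE against -R (adjusted p = 9.81e-05). With a pseudocount of 1 the RANKL value was 0.996, just under 2-fold. Of its 100-base windows, 35.3% also occur in Acat3 or Tcp1. Acat3, the neighbour of Acat2 in the genome, was 15.2 and 15.8 RPKM in the -R libraries and 26.6 and 22.8 in those of +R. In R+LE it was 26.1 and 19.8, the same order of conditions. Tcp1 was 87.4 and 85.7 RPKM in the -R libraries, 150 and 139 in those of +R and 142 and 111 in those of R+LE. The part of Acat3 and Tcp1 reads in the value of Acat2 was not tested. Idi1, the isomerase that converts isopentenyl to dimethylallyl diphosphate, was 7.16 and 9.83 RPKM in the -R libraries, 17.7 and 14.5 in those of +R and 15.7 and 13.4 in those of R+LE, so the +R and R+LE libraries overlapped and all 4 lay above -R. Its log2 fold change came to 0.89 under RANKL (adjusted p = 0.000445), -0.14 with LE (adjusted p = 0.716) and 0.76 for R+LE against -R (adjusted p = 0.00244). The last had an adjusted p of 0.0751 without -R replicate 1. The RANKL value passed 2-fold at 1.11 without -R replicate 2 and at 1.03 without +R replicate 2. Of the windows of Idi1, 27.6% occur in transcripts of other genes.

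The kinases in the middle of the arm did not pass the test in the fit of all 6 libraries. Mvk, mevalonate kinase, was 7.24 and 6.99 RPKM in the -R libraries, 6.08 and 6.42 in those of +R and 6.16 and 4.98 in those of R+LE, which places the +R libraries below -R rather than above. The adjusted p was 0.347 with RANKL and 0.590 with LE, and R+LE against -R had an adjusted p of 0.0871, or 0.038 without R+LE replicate 1. Pmvk, phosphomevalonate kinase, was 6.10 and 4.85 RPKM in the -R libraries, 6.99 and 6.66 in those of +R and 5.73 and 3.86 in those of R+LE (adjusted p = 0.174 with RANKL and 0.0876 with LE). Without R+LE replicate 1, Pmvk had a log2 fold change with LE of -0.75 (adjusted p = 0.0116). Within a library, the level of Fdps over that of Mvk amounted to 3.13 and 2.92 in the -R libraries, 8.59 and 8.40 in those of +R and 5.65 and 6.52 in those of R+LE, with no overlap between conditions.

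**Figure D4:**
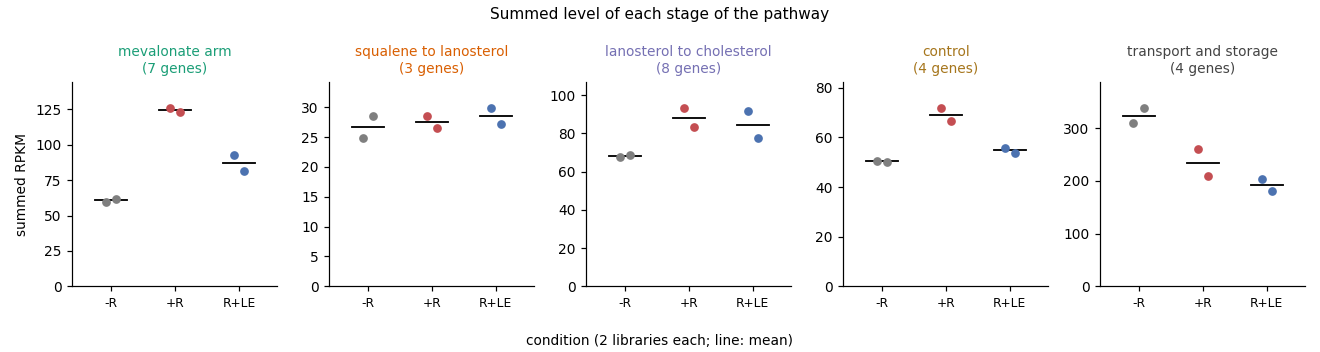
Summed RPKM of the members of each stage in the 6 libraries, with the condition on the horizontal axis and lines at the mean of 2 libraries. The mevalonate arm rises from 60.8 to 124 and falls to 87.0 on average, the 3 genes from squalene to lanosterol stay between 24.9 and 29.8 in every library, and the sum for transport and storage is mostly Npc2.

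The 3 genes that commit carbon to sterols, from squalene to lanosterol, went different ways, and their summed level was 24.9 and 28.6 RPKM in the -R libraries, 28.5 and 26.6 in those of +R and 29.8 and 27.3 in those of R+LE. Fdft1, squalene synthase, which draws farnesyl diphosphate into the sterol branch, was 12.7 and 14.3 RPKM in the -R libraries, 10.4 and 9.33 in those of +R and 10.97 and 10.1 in those of R+LE. It fell with RANKL (log2 fold change -0.44, standard error 0.14, adjusted p = 0.0177), although the adjusted p was 0.133 without -R replicate 2 and 0.15 without +R replicate 2. With LE its log2 fold change was 0.091 (adjusted p = 0.786). Fdft1 shares 774 bases of exon with Ctsb on the opposite strand, and Ctsb, the gene of cathepsin B, was 916 and 1051 RPKM in the -R libraries, 221 and 174 in those of +R and 290 and 243 in those of R+LE. The part of Ctsb reads in the value of Fdft1 was not tested. As measured, the ratio of Fdps to Fdft1 within a library amounted to 1.78 and 1.42 in the -R libraries, 5.03 and 5.79 in those of +R and 3.17 and 3.22 in those of R+LE.

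Lss, lanosterol synthase, which closes the sterol ring, was among the lowest members at 1.88 and 1.70 RPKM in the -R libraries, 3.40 and 4.003 in those of +R and 2.58 and 2.31 in those of R+LE. The 3 conditions did not overlap, and the gene rose with RANKL by 0.87 (standard error 0.16, adjusted p = 0.000412). With LE the log2 fold change of Lss was -0.51 (standard error 0.16, adjusted p = 0.0519), just outside the threshold. The adjusted p was 0.0462 with a pseudocount of 1, 0.0481 with a minimum mean of 1 RPKM, 0.0487 with no trend and 0.00371 with voom. Lss in voom also passed R+LE against -R (0.45, adjusted p = 0.0295). Sqle, squalene epoxidase, an oxygen-dependent step often taken as a control point, was 10.3 and 12.6 RPKM in the -R libraries, 14.7 and 13.2 in those of +R and 16.2 and 14.9 in those of R+LE. It did not pass the test with RANKL (log2 fold change 0.29, adjusted p = 0.123, or 0.0458 with quantile normalization) or with LE (0.15, adjusted p = 0.626), and R+LE was above -R by 0.44 (adjusted p = 0.0301). That last value had an adjusted p of 0.267 without -R replicate 1, 0.101 without R+LE replicate 1 and 0.0779 with no filter.

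Of the 8 genes that turn lanosterol into cholesterol, Cyp51, Msmo1 and Nsdhl rose with RANKL, Tm7sf2 fell, and Hsd17b7, Ebp, Sc5d and Dhcr7 did not pass the test in any comparison. Msmo1, the C4 methyl oxidase, was 23.0 and 22.9 RPKM in the -R libraries, 38.2 and 34.2 in those of +R and 40.4 and 35.0 in those of R+LE. Both treated conditions stood above -R and overlapped each other. It had log2 fold changes of 0.65 with RANKL (standard error 0.14, adjusted p = 0.00165), 0.055 with LE (adjusted p = 0.883) and 0.70 for R+LE against -R (adjusted p = 0.00128). Nsdhl, the dehydrogenase that acts with Msmo1 on the same C4 methyl groups, was 7.77 and 7.41 RPKM in the -R libraries, 12.3 and 11.2 in those of +R and 9.22 and 6.71 in those of R+LE. In contrast to Msmo1 its R+LE libraries lay below both +R libraries and on either side of -R. Nsdhl rose by 0.60 with RANKL (standard error 0.16, adjusted p = 0.00571, or 0.0573 without -R replicate 2) and fell by 0.54 with LE (standard error 0.16, adjusted p = 0.0325). The fall of Nsdhl with LE was the least stable of the 5, with an adjusted p of 0.249 without R+LE replicate 2, 0.148 without +R replicate 1, 0.0763 without -R replicate 1 and 0.0772 without -R replicate 2, and of 0.169 with no filter, 0.0611 with no trend and 0.0784 with only the compared groups. Whether the LE response of Nsdhl differs from that of Msmo1 was not tested.

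Cyp51, lanosterol demethylase, was 4.77 and 5.67 RPKM in the -R libraries, 8.50 and 7.78 in those of +R and 6.32 and 6.47 in those of R+LE. Cyp51 rose with RANKL by 0.60 (adjusted p = 0.00286) with no call for LE (-0.32, adjusted p = 0.176). Tm7sf2, a sterol C14 reductase, was 3.04 and 2.92 RPKM in the -R libraries, 2.22 and 1.42 in those of +R and 2.25 and 1.52 in those of R+LE, on 64 to 149 reads a library, and it shares 532 bases of exon with Vps51 on the same strand. It fell with RANKL (log2 fold change -0.60, adjusted p = 0.0228) and was lower in R+LE than in -R (-0.56, adjusted p = 0.0425). Its adjusted p with RANKL was 0.128 without -R replicate 1, 0.0948 without -R replicate 2 and 0.231 without +R replicate 2. For R+LE against -R it was 0.196 without -R replicate 1, 0.146 without -R replicate 2 and 0.268 without R+LE replicate 2. It was 0.136 with RANKL with no filter on low values. For R+LE against -R it was 0.193 with no filter, between 0.0560 and 0.0680 with each of the 3 other scalings and at the threshold with a pseudocount of 0.1. The remaining members on the route from lanosterol to cholesterol passed no test in any comparison. Ebp, the isomerase EBP, lay between 17.2 and 22.2 RPKM in all 6 libraries. Sc5d, sterol C5 desaturase, lay between 2.33 and 3.29. Dhcr7, the reductase of the final step on that route, lay between 4.94 and 6.07, and Hsd17b7, a ketosteroid reductase, between 2.34 and 3.26.

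Among the genes that control the pathway, Insig1 had the largest change with LE of the 26 members. It spans bases 28071412 to 28078662 of chromosome 5 (mm10) and was 6.54 and 7.82 RPKM in the -R libraries, 16.8 and 13.0 in those of +R and 7.41 and 6.34 in those of R+LE. Both +R libraries stood above the other 4, and the R+LE libraries overlapped those of -R. Its log2 fold change came to 0.99 under RANKL (standard error 0.16, adjusted p = 0.000109), -1.05 with LE (standard error 0.16, adjusted p = 0.00038) and -0.058 for R+LE against -R (adjusted p = 0.816). The call at 2-fold depended on single libraries, since the value with LE was -0.87 without +R replicate 1 and -0.95 without R+LE replicate 2. That with RANKL was 1.11 without -R replicate 2 and 1.17 without +R replicate 2. Insig2, its paralog, whose product also retains SCAP, was 6.89 and 6.47 RPKM in the -R libraries, 8.48 and 6.25 in those of +R and 6.79 and 5.39 in those of R+LE, and the conditions overlapped. The log2 fold change of Insig2 was 0.12 with RANKL (standard error 0.16, adjusted p = 0.585) and -0.25 with LE (standard error 0.16, adjusted p = 0.42). The level of Insig1 over that of Insig2 within a library amounted to 0.949 and 1.21 in the -R libraries, 1.98 and 2.07 in those of +R and 1.09 and 1.18 in those of R+LE. No 100-base window searched in either paralog occurs in another gene, so the paralogs could be told apart over those windows. For Insig2 these were 1193 windows, while the counted transcript has 2453 bases, so part of it was not searched.

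Srebf2, the gene of SREBP2, was expressed well above most of the enzymes, at 23.5 and 24.5 RPKM in the -R libraries, 35.4 and 36.6 in those of +R and 28.7 and 29.5 in those of R+LE. The 3 conditions did not overlap, a separation that was common over all genes for each pair of conditions. Their replicates were close, with SDs of 0.687, 0.830 and 0.555 RPKM (n = 2 each). Srebf2 rose by 0.58 with RANKL (standard error 0.13, adjusted p = 0.00255), while its log2 fold change of -0.30 with LE (standard error 0.13, adjusted p = 0.180) and of 0.27 for R+LE against -R (adjusted p = 0.135) did not pass the test, although the last passed under median centring (adjusted p = 0.0362) and quantile normalization (adjusted p = 0.0194). Scap, the gene of the escort, was 13.6 and 11.2 RPKM in the -R libraries, 10.97 and 10.9 in those of +R and 12.9 and 12.5 in those of R+LE. Its log2 fold change came to -0.17 under RANKL (standard error 0.14, adjusted p = 0.33), 0.21 with LE (standard error 0.14, adjusted p = 0.425) and 0.036 for R+LE against -R (adjusted p = 0.874). In all, 985 bases of its exons are shared with 5830462I19Rik on the opposite strand. These are levels of mRNA, and the processing of SREBP2, by which sterol acts on it, is not visible in them.

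Genes for moving and storing cholesterol split between a rise of Stard4 and falls of Npc1 and Soat1. Stard4, a carrier of sterol between membranes, was 3.03 and 3.54 RPKM in the -R libraries, 7.89 and 7.22 in those of +R and 5.99 and 5.32 in those of R+LE, with no overlap between conditions. It rose by 1.09 with RANKL (standard error 0.15, adjusted p = 1.85e-05), had a log2 fold change of -0.39 with LE (standard error 0.15, adjusted p = 0.107), and stayed above -R by 0.70 (adjusted p = 0.00148). The rise of Stard4 was 0.996, just under 2-fold, without -R replicate 1, and voom gave an adjusted p of 0.0485 with LE. Npc1, the membrane protein that exports cholesterol from lysosomes, was 32.1 and 33.8 RPKM in the -R libraries, 16.2 and 14.6 in those of +R and 18.0 and 17.5 in those of R+LE. Its level in +R was 0.468 times that in -R. It had log2 fold changes of -1.07 with RANKL (standard error 0.14, adjusted p = 1.12e-05), 0.20 with LE (standard error 0.14, adjusted p = 0.435) and -0.87 for R+LE against -R (adjusted p = 0.000131). Without +R replicate 2 the fall of Npc1 was -0.997, again just under 2-fold. Npc1 shares 601 bases of exon with Gm15956 and Rmc1 on the opposite strand. Its partner Npc2, which hands cholesterol to NPC1 inside the lysosome, was the most abundant member at 233 and 246 RPKM in the -R libraries, 218 and 172 in those of +R and 156 and 137 in those of R+LE. Npc2 did not pass the test with RANKL (log2 fold change -0.30, adjusted p = 0.158) or with LE (-0.41, adjusted p = 0.153), yet it was lower in R+LE than in -R by a log2 fold change of -0.71 (adjusted p = 0.0042). That had an adjusted p of 0.0537 without -R replicate 1 and of 0.077 without -R replicate 2.

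Soat1, the enzyme that esterifies cholesterol for storage in lipid droplets and spans bases 156428108 to 156474328 of chromosome 1, had the largest change with RANKL of the 26 members. It was 41.6 and 54.1 RPKM in the -R libraries, 17.9 and 14.9 in those of +R and 23.2 and 22.02 in those of R+LE. The conditions did not overlap, and R+LE lay between +R and -R. Its log2 fold change came to -1.51 under RANKL (standard error 0.16, adjusted p = 1.53e-06), 0.46 with LE (standard error 0.16, adjusted p = 0.0761) and -1.05 for R+LE against -R (adjusted p = 9.39e-05). Without -R replicate 2 the last value was -0.87 and so under 2-fold. With LE the adjusted p of Soat1 was 0.0246 under median centring, 0.0358 under quantile normalization and 0.0170 with voom. The macrophage marker sum, mostly Lyz2, was also highest in -R. Of the 8 markers Itgam was instead lowest there, and the part of that shift in the values of Soat1 was not tested.

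Other genes of the pathway were taken from 4 lists of 50 genes, of which 44 passed the filter on low values. Among 15 tested genes for lipoprotein uptake, sterol transport and storage, 8 fell and 3 rose with RANKL, where 21.5% and 23.9% of all genes did. With LE 4 rose and none fell in limma, where 5.19% and 6.86% of all genes did, and at an unadjusted p below 0.05 the counts were 5 and 2. The median log2 fold change of these 15 was -0.47 with RANKL and 0.055 with LE, against 0.045 and -0.047 over all genes tested. Of those that rose with LE, Lipa, Lrp1 and Lrp8 had fallen with RANKL. Lipa, the lysosomal lipase that frees cholesterol from the esters of ingested lipoproteins, was 425 and 496 RPKM in the -R libraries, 123 and 101 in those of +R and 300 and 230 in those of R+LE. It had log2 fold changes of -2.03 with RANKL (adjusted p = 3.11e-07) and 1.23 with LE (adjusted p = 0.000363). The receptor gene Lrp1 was 141 and 153, then 57.2 and 70.4, then 91.6 and 138 RPKM in the same order of conditions (-1.21 with RANKL, adjusted p = 9.58e-05, and 0.82 with LE, adjusted p = 0.00935). The receptor gene Lrp8 was low, at 2.87 and 3.07, then a mean of 1.502 with both libraries alike, then 2.67 and 2.69 RPKM (-0.79, adjusted p = 0.000736, and 0.67, adjusted p = 0.0105). Nceh1, which hydrolyses stored cholesterol esters, fell by a log2 fold change of -2.45 with RANKL (adjusted p = 1.03e-08) and had 0.37 with LE (adjusted p = 0.177). In the opposite direction, Tmem97, a binding partner of NPC1, rose by 0.92 with RANKL (adjusted p = 0.000211) and had -0.079 with LE (adjusted p = 0.845).

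**Figure D5:**
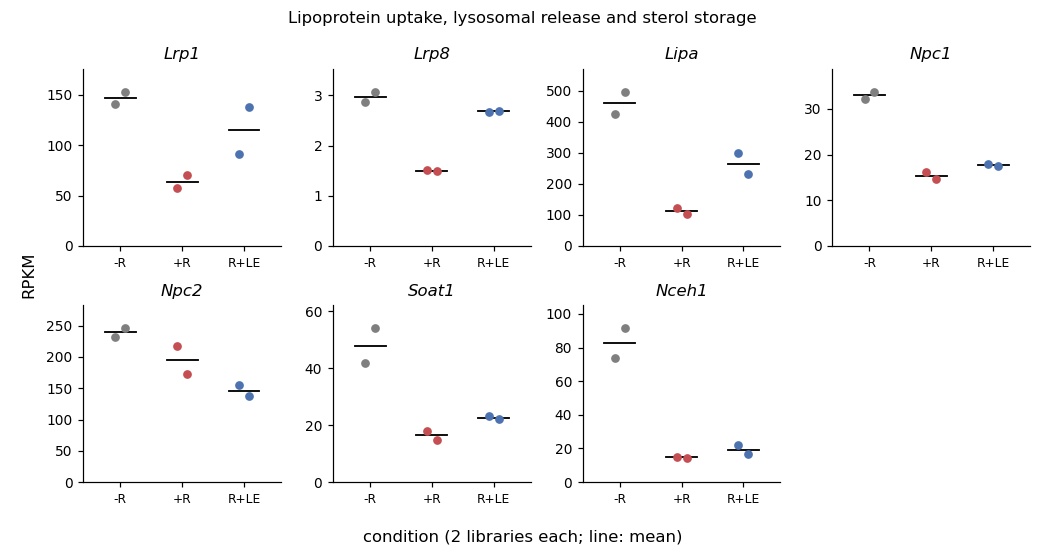
RPKM of genes for lipoprotein uptake, lysosomal release and storage of cholesterol in the 6 libraries, from 0 on the vertical axis, with lines at the mean of 2 libraries; Npc1, Npc2 and Soat1 are members, and the other 4 were picked from a list of 18 after their values were seen. All 7 are highest in -R, and for Lipa, Lrp1 and Lrp8 both R+LE libraries lie above both +R libraries.

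In limma, no gene of the lists for isoprenoids and for SREBP processing was called at 2-fold or more in any comparison. With RANKL, 6.58% of all genes were called higher and 8.92% lower, and 23.9% rose and 21.5% fell. Of 14 genes of the isoprenoid branch, which uses farnesyl diphosphate for protein prenylation, dolichol and ubiquinone, 2 rose (Rabggtb and Pdss1) and 1 fell (Coq2) with RANKL, and only Pdss1 fell with LE in limma. Pdss1, a subunit of the enzyme that builds the ubiquinone side chain, was 6.40 and 6.47 RPKM in the -R libraries, 9.02 and 8.49 in those of +R and 6.21 and 5.83 in those of R+LE (log2 fold change 0.42 with RANKL, adjusted p = 0.0198, and -0.51 with LE, adjusted p = 0.022). Ggps1, which makes the geranylgeranyl donor, was 2.90 and 3.18 RPKM in the -R libraries, 2.62 and 2.30 in those of +R and 3.11 and 2.19 in those of R+LE, and passed no test. Of 9 genes for SREBP processing and sterol-regulated degradation, Mbtps1, Rnf145 and Srebf1 rose and Paqr3 and Rnf139 fell with RANKL, and none passed the test with LE, or 1, Srebf1, at an unadjusted p below 0.05. Mbtps1, the site-1 protease that cuts SREBPs in the Golgi, was 12.3 and 13.4 RPKM in the -R libraries, 21.1 and 19.2 in those of +R and 16.4 and 16.72 in those of R+LE (log2 fold change 0.63 with RANKL, adjusted p = 0.0014, and -0.28 with LE, adjusted p = 0.238). Srebf1, the sister gene of Srebf2, was 12.5 and 10.6 RPKM in the -R libraries, 14.9 and 16.8 in those of +R and 10.8 and 12.8 in those of R+LE (0.44, adjusted p = 0.0231, and -0.41, adjusted p = 0.0907).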

How the data were processed

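Total RNA of 6 libraries was analysed, 2 for each condition given by the sample titles. The authors aligned 100 bp paired reads to mm10 with TopHat, per the study's methods, whereas the submitters' processing notes list HISAT2, HOMER and DESeq2. Per the file headers, HOMER counted exon reads without regard to strand and condensed each gene to 1 transcript, and the values were deposited as RPKM under titles that say FPKM. Versions are not given in the sources used here. No column of values was left out.

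Whole reads were recovered from RPKM and transcript length (every checked value lay within 0.1 read of a whole number), which gave the depth, and the chi-square per gene between replicates, 12.5 to 28.0, exceeded what counting alone gives. limma 3.58.1 in R 4.3.3 fitted log2(RPKM + 0.5) of all 6 libraries at once, with moderated variances that follow a trend and Benjamini-Hochberg adjustment over 11595 genes. Scripts were tested on simulated data. Windows shared with other genes and exon overlaps came from GENCODE vM21, and sequences from RefSeq.

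The members and lists were chosen with earlier results of these data known. Full statistics were given for members called in any comparison and for Srebf2, Scap, Insig1 and Insig2, and other genes came only from 4 lists. Other settings tried were no filter or a minimum mean of 1 RPKM, a pseudocount of 0.1 or 1, no trend, only the compared groups, 3 other scalings (median centring, quantile normalization, Rn45s left out of the depth), a block for the replicate number, voom on the recovered reads, and each library left out. The planned comparison of protein sequences was not run. Some genes of the lists are not reported here.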

Additional observations from a re-analysis of the deposited data

How the results depend on the processing

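Of the 26 members, the number at an adjusted p below 0.05 with RANKL was 16 and ranged from 13 to 16 with each library left out, and the number called ranged from 5 to 9 around 7. With LE the 5 members became 2 with no filter on low values, 8 with the replicate block, 8 with voom on recovered reads, and between 3 and 6 with each library left out. For R+LE against -R the 11 members ranged from 9 with no filter to 13 with voom over the settings that keep all 6 libraries. With some libraries left out fewer passed. The call at 2-fold with LE, that of Insig1, went from 1 to 0 with a library left out, and that of Soat1 for R+LE against -R went to 0 with median centring, with quantile normalization, with Rn45s left out of the depth and with a library left out. The sources used here do not say whether same-numbered libraries belong together. Over genes, their deviations correlated at -0.0460 between -R and +R, 0.107 between -R and R+LE and 0.249 between +R and R+LE. These values do not settle whether the numbers pair the libraries, so the block stands as an alternative. With the block, Pmvk (adjusted p = 0.0228), Lss (0.0357) and Soat1 (0.0343) also passed with LE, and no other count moved by over 1.5 times.

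Signs changed for values near 0. With LE, Hsd17b7 had 0.0503 under median centring, 0.0320 under quantile normalization and 0.0118 with Rn45s left out of the depth. Sc5d had -0.0153 with RANKL under quantile normalization, and Insig1 had 0.0132 for R+LE against -R with Rn45s left out. With each library left out, the log2 fold change with RANKL ranged from -0.00813 to 0.14 for Ebp, -0.20 to 0.22 for Sc5d and -0.0881 to 0.32 for Insig2. With LE it ranged from -0.16 to 0.20 for Ebp, -0.11 to 0.11 for Hsd17b7, -0.28 to 0.00418 for Idi1, -0.0481 to 0.16 for Msmo1, -0.13 to 0.29 for Sc5d and -0.21 to 0.29 for Tm7sf2. For R+LE against -R it ranged from -0.0948 to 0.26 for Ebp, -0.18 to 0.0625 for Insig1, -0.28 to 0.0227 for Insig2, -0.17 to 0.27 for Nsdhl, -0.45 to 0.0683 for Pmvk and -0.10 to 0.17 for Scap. The cause was not tested.

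Leaving out a library leaves a condition with 1, which is then assumed to vary like the others. Depth limits Tm7sf2 most, with 64 reads in its lowest library. Protein sequences of the paralogs were not analysed here.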

Other observations

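The oxysterol enzymes and the acetyl-CoA enzymes, as a list of 9 genes of which 6 were tested, held 3 genes that rose and 3 that fell with RANKL, and 1 of each with LE. Of all genes tested, 23.9% rose and 21.5% fell with RANKL, and 5.19% rose and 6.86% fell with LE. Ch25h, which makes 25-hydroxycholesterol, an oxysterol that holds SREBPs in the endoplasmic reticulum, was 12.1 and 15.1 RPKM in the -R libraries, 0.773 and 1.11 in those of +R and 2.35 and 2.26 in those of R+LE. Its log2 fold change came to -3.30 under RANKL (standard error 0.17, adjusted p = 5.06e-10), 0.97 with LE (standard error 0.17, adjusted p = 0.00117) and -2.33 for R+LE against -R (adjusted p = 4.65e-08), by limma. Acat1, the mitochondrial thiolase, was 10.5 and 12.6 RPKM in the -R libraries, 32.6 and 27.6 in those of +R and 22.6 and 17.7 in those of R+LE (log2 fold change 1.34 with RANKL, adjusted p = 5.8e-06, and -0.57 with LE, adjusted p = 0.0283). Lbr, a second sterol C14 reductase besides Tm7sf2, was 8.96 and 9.45 RPKM in the -R libraries, 16.4 and 14.1 in those of +R and 18.7 and 17.2 in those of R+LE, with a log2 fold change of 0.70 with RANKL (adjusted p = 0.000763) and 0.23 with LE (adjusted p = 0.363). Tm7sf2, by contrast, had -0.60 with RANKL. Whether any of these changes bears on those of the members was not tested.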
